A study of Mus musculus with 8 samples.

Results

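The miR-30 family and miR-384 were followed among the small RNAs bound to the RNA-induced silencing complex (RISC) in mouse brain. The set was made of 8 mature miRNAs, taken as the reads that the deposited table names mmu-miR-30a-5p, mmu-miR-30b-5p, mmu-miR-30c-5p, mmu-miR-30d-5p, mmu-miR-30e-5p, mmu-miR-30a-3p, mmu-miR-30e-3p and mmu-miR-384-5p (the species prefix mmu is left out from here on). They were 8 of 895 named mature miRNAs, and 1078 of 47204 distinct read sequences carried their names. The 5 other arms of the same hairpins (miR-30b-3p, miR-30c-1-3p, miR-30c-2-3p, miR-30d-3p and miR-384-3p) were read beside them.

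All mice were 5XFADtg, that is they carried transgenes for mutant human amyloid precursor protein and presenilin that are expressed mainly in neurons and lead to amyloid plaques. The 4 het mice (5XFADtg Rubicon+/-) had 1 intact copy of Rubicon, a gene that restrains autophagy, and the 4 ko mice (5XFADtg Rubicon-/-) had none. Mice without the transgene and mice with both Rubicon copies were not analysed here, so that every difference is one between ko and het on the 5XFADtg background. Per the study's methods they were female mice of a mixed C57BL/6J/SJL background. The methods name more than 1 adult age for this cross, the study's results give a single age for this comparison with age-matched groups, and the labels give none. The labels list 4 mice per genotype, as the methods do, while the results speak of fewer for this comparison. RNA came from cortex and hippocampus combined, after Argonaute proteins had been pulled down with a GW182 peptide. In such bulk tissue, fewer cells of a type and less RNA per cell cannot be told apart.

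A miRNA hairpin gives a 5p and a 3p arm, and the arm that stays in an Argonaute protein guides the RISC to mRNAs. The choice of mRNAs rests mainly on the seed near the 5′ end of the guide, so miRNAs with a common seed form a family with overlapping targets, and a read that starts at another base has another seed. miR-30 miRNAs are found in most tissues, and the mRNA of the autophagy protein Beclin 1 is a known target of miR-30a. miR-384-5p is enriched in brain and has the same seed as the 5p arms of the miR-30 family.

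The mature sequences below show what the 8 members have in common and where paralogs part, with positions 2 to 8 in capitals. They are from RefSeq (GRCm38.p6), which was matched by name for 6 of the 8 members.
miR-30a-5p: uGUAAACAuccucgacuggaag
miR-30e-5p: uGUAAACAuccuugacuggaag
miR-30c-5p: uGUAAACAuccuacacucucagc
miR-384-5p: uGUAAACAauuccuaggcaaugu
miR-30a-3p: cUUUCAGUcggauguuugcagc
miR-30e-3p: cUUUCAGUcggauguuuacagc
Counted from 1 at the 5′ end, miR-30a-5p and miR-30e-5p differ only by C13U, and miR-30a-3p and miR-30e-3p only by G18A. miR-30a-5p and miR-30c-5p have the first 12 bases in common and differ at 5 of 22 positions. miR-384-5p has the first 8 bases of miR-30a-5p and differs from it at 10 of 22 positions, so it is a relative by seed and not over its length.

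In GRCm38.p6, Mir30a lies on chromosome 1 (chr1:23272269-23272339, plus strand) in no other gene of the GENCODE M21 annotation. Mir30c-2 (chr1:23291701-23291784, plus strand) lies 19361 bases further on in an exon of the long noncoding RNA Gm27028. Mir30c-1 (chr4:120769534-120769622) and Mir30e (chr4:120772606-120772697) are on the minus strand, 2983 bases apart, in introns of Nfyc, which encodes a subunit of the transcription factor NF-Y. Mir384 (chrX:105344282-105344369, minus strand) overlaps no other gene. Since Mir30c-1 and Mir30c-2 give the same miR-30c-5p, reads of that arm cannot be divided between them.

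Library depth, counted as the reads kept in the deposited data, ranged from 509839 to 19878054 reads, and the 2 libraries above 5000000 reads were both ko. Between 22212 and 963231 reads per library belonged to the 8 members. Levels are given in counts per 1000000 reads of the library (CPM), where 3 reads were worth 5.79 CPM in the shallowest library and 0.151 CPM in the deepest. The kept reads summed to 98.4% of 1000000 CPM in het 1, the shallowest, and to 99.8% in ko 2, the deepest. The neuronal miR-128-3p and miR-124-3p were present at means of 68599 and 52509 CPM, as the label of brain tissue implies. Of the 5 neuronal miRNAs listed, 0 were called (limma, adjusted p under 0.05), with 3 higher and 2 lower in ko. Of the miRNAs of other cell types, only the list of other epithelia held called miRNAs, 3 of 6 tested, all lower in ko. Over all 463 miRNAs tested 6 were called (1.3%), also all lower in ko. The 7 miRNAs of the epithelial list summed to between 2249 and 8555 CPM in het and between 226 and 1794 CPM in ko. Their part in the values below was not tested.

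The 6 guide arms (5p) summed to 40683, 37345, 43721 and 43066 CPM in the 4 het libraries. In the 4 ko libraries they summed to 36823, 46453, 36777 and 31626 CPM. The ko libraries spread on both sides of the het libraries, with ko 2 the highest and ko 4 the lowest of all 8. The 8 members together held 4.15% of a library on average, with a range from 3.39% to 4.84%.

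miR-30c-5p was the most abundant member, at rank 16 of all 895 miRNAs. Its level was 12554, 12125, 13093 and 16382 CPM in het and 13332, 15422, 14108 and 10669.9 CPM in ko. The highest value was from a het library and the lowest from a ko library, and the groups overlapped. It held 34.1% ± 3.15 (SD, n = 8) of the summed guide arms.

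miR-30d-5p came next, with 8543, 7478, 9439.9 and 7595 CPM in het and 7033, 8226, 7671 and 5281 CPM in ko. All 4 ko libraries were below the het mean of 8264 CPM, yet 2 of them exceeded het 2 and het 4. miR-30b-5p was at 6915, 5408, 6864 and 7749.9 CPM in het and 6708, 8496, 7366 and 5255 CPM in ko. Its highest and lowest library were both ko.

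miR-30e-5p had the widest spread of the 5 miR-30 guides, with a coefficient of variation of 24.4%. Its level was 6186, 6380.4, 7039 and 5929.8 CPM in het and 4042, 7129, 3443 and 4807 CPM in ko. Here 3 ko libraries fell below all het libraries, while ko 2, the deepest library, was above them all. miR-30a-5p was at 5898, 4846, 6443 and 4947 CPM in het and 4789, 6395, 3641 and 5099 CPM in ko. As with miR-30e-5p, ko 3 was the lowest of the 8 libraries and ko 2 the highest of the 4 ko libraries.

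The 3p arms of miR-30a and miR-30e were present at lower levels that lay close to each other. miR-30a-3p was at 1068, 1056, 1067 and 796 CPM in het and 1143, 1027, 898 and 1154 CPM in ko. miR-30e-3p was at 1131, 933, 1069.6 and 686 CPM in het and 1016, 885, 776 and 1099 CPM in ko. Both had their lowest value in het 4. miR-384-5p, the least abundant member, was at 587, 1108, 843 and 463 CPM in het and 919, 784, 549 and 514 CPM in ko, and its coefficient of variation of 31.7% was the largest of the 8.

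**Figure D1:**
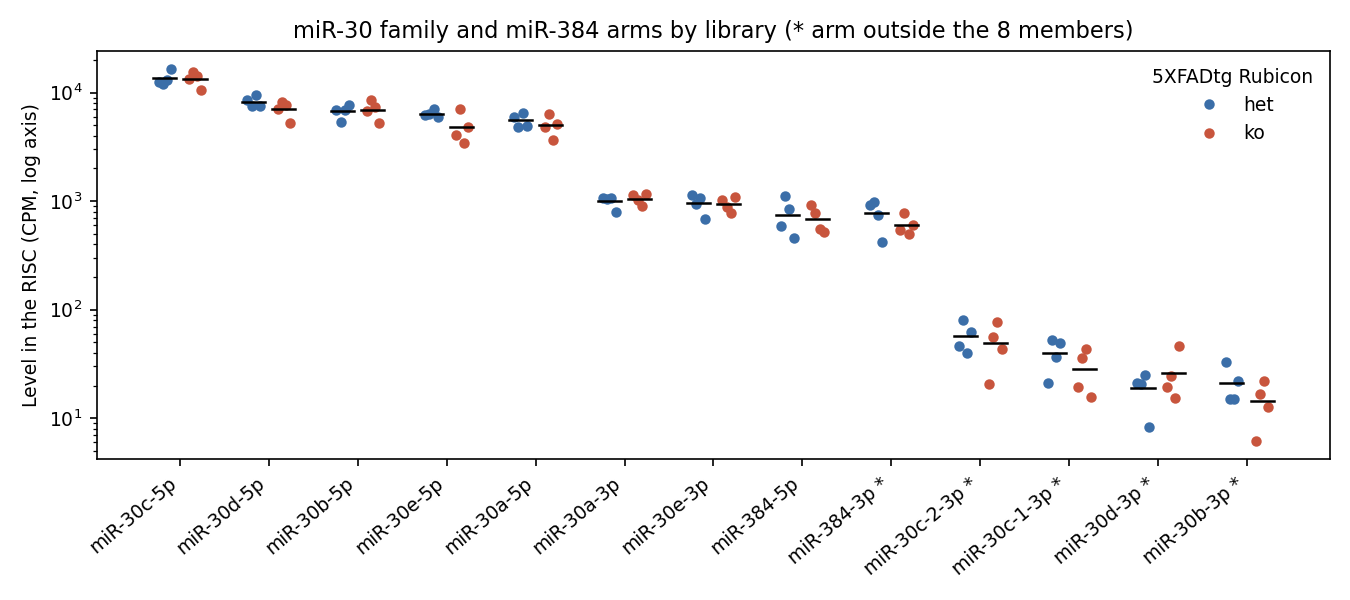
Level of each arm in the 8 libraries in CPM on a log axis, with 1 point per library, het in blue, ko in red and a black line at each group mean. The 5 miR-30 guides lie between 3443 and 16382 CPM, the 3p arms of miR-30a and miR-30e and both arms of miR-384 between 420.1 and 1154 CPM, and the other 4 arms at or below 81.2 CPM, and het and ko overlap for each arm.

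To see which paralogs differed in level, the log2 ratio of each pair was taken within every library and tested over the 8 libraries by an exact two-sided sign-flip permutation test. The smallest p this allows is 0.0078125, and p-values were adjusted over all 28 pairs. In this test 24 of 28 pairs differed. Per the study's methods, adapters were ligated to the RNA and the product was amplified by PCR. How evenly these steps capture different sequences was not measured here, so a ratio between sequences is one of reads. The same holds for the arm ratios and for the shares of lengths and tails below. miR-30c-5p exceeded miR-30d-5p by 1.77-fold and miR-30b-5p by 1.97-fold, in 8 of 8 libraries each (exact permutation test, adjusted p = 0.00994 for both).

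Among the 4 guides below miR-30c-5p in the order, down to miR-30a-5p, neighbours did not pass. miR-30d-5p stood above miR-30b-5p by 1.12-fold in 6 of 8 libraries (exact permutation test, adjusted p = 0.0891). miR-30b-5p stood above miR-30e-5p by 1.24-fold in 6 of 8 libraries (exact permutation test, adjusted p = 0.0757). miR-30e-5p stood above miR-30a-5p by 1.05-fold in 5 of 8 libraries (exact permutation test, adjusted p = 0.336). The ratios of these neighbours were not tested between genotypes. The mean log2 ratio was 0.21 in het and -0.06 in ko for miR-30e-5p over miR-30a-5p, 0.07 and 0.55 for miR-30b-5p over miR-30e-5p, and 0.30 and 0.02 for miR-30d-5p over miR-30b-5p. Members further apart did differ, since miR-30d-5p exceeded miR-30e-5p by 1.39-fold and miR-30b-5p exceeded miR-30a-5p by 1.31-fold in 8 of 8 libraries (exact permutation test, adjusted p = 0.00994 for both).

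The step from the miR-30 guides to the 3p arms of miR-30a and miR-30e was the largest one in the order, and miR-384-5p came after these 3p arms. miR-30a-5p exceeded miR-30a-3p by 5.08-fold in 8 of 8 libraries (exact permutation test, adjusted p = 0.00994). miR-30a-3p and miR-30e-3p did not pass, with a ratio of 1.09 and 6 of 8 libraries in that direction (exact permutation test, adjusted p = 0.0525). miR-30e-3p exceeded miR-384-5p by 1.36-fold in 7 of 8 libraries (exact permutation test, adjusted p = 0.0365), a call that was lost when any single library other than het 2, or the 2 deepest together, were left out (adjusted p from 0.0525 to 0.0729). With fewer libraries the exact test has fewer sign patterns, so its smallest possible p is larger. The log2 ratio itself stayed between 0.35 and 0.54 over all alternatives.

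Some paralogs kept a nearly fixed ratio. The log2 ratio of miR-30c-5p to miR-30b-5p was 0.98 ± 0.11 (SD, n = 8) and that of miR-30a-3p to miR-30e-3p 0.12 ± 0.11 (SD, n = 8). The SD was widest for miR-30b-5p over miR-384-5p, with a log2 ratio of 3.29 ± 0.56 (SD, n = 8).

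No member was detectably higher or lower in ko than in het. With limma on log2(CPM + 1) over all 463 miRNAs of at least 10 CPM, 1.3% of the miRNAs tested were called at an adjusted p under 0.05 (6 miRNAs, all lower in ko), and 0 of the 8 members were. None of the 8 had an unadjusted p under 0.05, against 34 of the 463. On recovered reads, edgeR called 4 miRNAs (0.864%) and DESeq2 called 9 (1.94%), with 0 members in either. The median log2 fold change was -0.05 over the 8 members and -0.09 over all miRNAs tested.

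miR-30e-5p had the largest difference of the 8. It averaged 6384 ± 474 CPM (SD, n = 4) in het and 4855 ± 1615 CPM (SD, n = 4) in ko, a log2 fold change of -0.45 ± 0.26 (SE; 95% interval -1.0 to 0.11, adjusted p = 0.755 by limma). Without ko 2 it was -0.65 (limma adjusted p = 0.226), and it shrank to -0.22 when each library was centred on its own median, to -0.26 with edgeR and to -0.25 with DESeq2. For miR-30d-5p the log2 fold change was -0.24 (95% interval -0.73 to 0.25, limma adjusted p = 0.948) and for miR-30a-5p -0.17 (95% interval -0.70 to 0.36, limma adjusted p = 0.975). These values rested in part on single libraries, with -0.11 for miR-30d-5p without ko 4 and, for miR-30a-5p, -0.0288 without ko 3, -0.0934 without het 3 and -0.30 without ko 2. Without the 2 deepest libraries they were -0.37 and -0.35. With edgeR they were -0.11 for miR-30d-5p and -0.0203 for miR-30a-5p, with DESeq2 -0.10 and -0.0098, and with median centring miR-30d-5p was at -0.0192.

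The other 5 members lay between -0.08 and 0.09 on the log2 scale. The most abundant, miR-30c-5p, had a log2 fold change of -0.02 with a 95% interval from -0.48 to 0.44, and miR-30b-5p one of 0.04 with an interval from -0.47 to 0.54. For miR-384-5p it was -0.08 with an interval from -0.77 to 0.61, and -0.42 without the 2 deepest libraries. These intervals are not adjusted for the number of miRNAs tested and are not a limit of detection. With 4 mice per genotype, differences inside them and some beyond them could go uncalled. When every library was centred on its own median, the median of all miRNAs went from -0.09 to 0.13, and the values of miR-30a-5p, miR-30c-5p, miR-30e-3p and miR-384-5p then turned positive, with 0 members called.

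**Figure D2:**
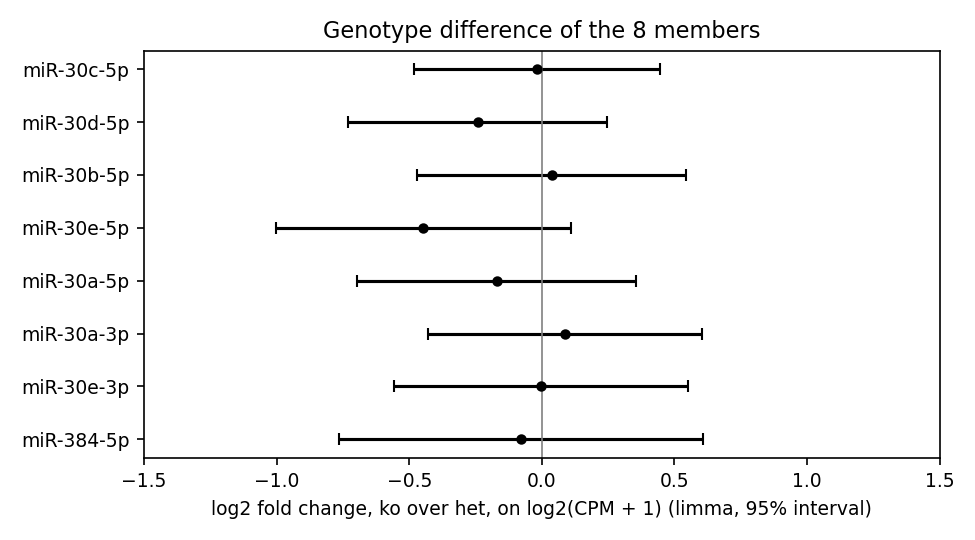
Log2 fold change of ko over het for the 8 members on log2(CPM + 1) from limma, with 95% intervals from 4 libraries of each genotype and a grey line at 0. All 8 intervals include 0, and the lowest point is miR-30e-5p at -0.45.

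Single read sequences gave the same picture. Of 3299 reads of at least 10 CPM, 16 were called by limma (0.485%, all lower in ko), and of the 112 tested reads of the members 0 were. The median log2 fold change was -0.12 over the 112 member reads and -0.02 over all reads tested. An unadjusted p under 0.05 was found for 2 member reads (1.79%), against 175 of all reads tested (5.30%). In both reads the groups did not overlap, which was also the case for 4 other member reads, that is 6 of 112 (5.36%), against 99 of all 3299 reads (3%). Of these 6 reads, 3 were of miR-30b-5p, 2 of miR-30d-5p and 1 of miR-30e-5p. The 2 reads with the smallest p were chosen by that value.

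The first was the read of miR-30e-5p that equals its mature sequence (tgtaaacatccttgactggaag), at 772, 944, 756 and 829 CPM in het and 328, 644, 334 and 584 CPM in ko. Every ko library was below every het library, with a log2 fold change of -0.87 ± 0.30 (SE; adjusted p = 0.683 by limma). The second was a 23 nt read of miR-30b-5p that starts 1 base upstream, at 9.65, 8.94, 17.9 and 16.5 CPM in het and 23.8, 22.2, 21.1 and 30.4 CPM in ko. On the log2 scale ko exceeded het by 0.88 ± 0.39 (SE), with an adjusted p of 0.931 by limma.

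The hairpins differed widely in how much of the second arm was found in the RISC. The log2 ratio of 5p to 3p (CPM + 1) was 2.34 ± 0.27 (SD, n = 8) for miR-30a and 2.54 ± 0.42 (SD, n = 8) for miR-30e, that is 5.08-fold and 5.82-fold. For miR-30b and miR-30d it was 8.61 ± 0.62 and 8.45 ± 0.79 (SD, n = 8 each), that is 390-fold and 351-fold. Of 138 hairpins with both arms at 10 CPM or more, 2 had a larger absolute ratio than miR-30b and 3 a larger one than miR-30d.

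miR-384 was at the other end. Its 5p to 3p ratio was 1.05-fold, with a log2 ratio of 0.06 ± 0.40 (SD, n = 8), and 135 of 138 hairpins had a larger absolute ratio. miR-384-3p was found at 919, 992, 747 and 420.1 CPM in het and 538, 780.0, 498 and 604 CPM in ko, so that either arm was the larger one depending on the library. The arms of miR-30c that are the counterparts of its guide, miR-30c-1-3p and miR-30c-2-3p, averaged 34.2 ± 14.0 and 53.3 ± 19.9 CPM (SD, n = 8 each). miR-30b-3p and miR-30d-3p averaged 17.9 ± 7.89 and 22.6 ± 10.9 CPM (SD, n = 8 each), so their ratios rest on few reads in the shallow libraries.

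Arm ratios were tested between genotypes over the 138 hairpins, and limma called 0% of them (8 had an unadjusted p under 0.05). For miR-30a the log2 ratio was 2.47 ± 0.20 in het and 2.22 ± 0.29 in ko (SD, n = 4 each), a difference of -0.26 (95% interval -0.94 to 0.43, limma adjusted p = 0.875). For miR-30e it was 2.76 ± 0.27 in het and 2.32 ± 0.47 in ko (SD, n = 4 each), a difference of -0.44 (95% interval -1.19 to 0.30, limma adjusted p = 0.792). Without ko 2 these differences were -0.40 for miR-30a and -0.67 for miR-30e. The differences of miR-30b, miR-30d and miR-384 were 0.62, -0.69 and 0.22, none of them past the threshold. They went to 0.31 without ko 1, -0.25 without ko 4 and 0.0152 without het 1, respectively, and that of miR-384 to 0.0163 without ko 1. With the 2 deepest libraries left out, the differences of miR-30b, miR-30d and miR-384 were 0.16, -0.96 and -0.0015.

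**Figure D3:**
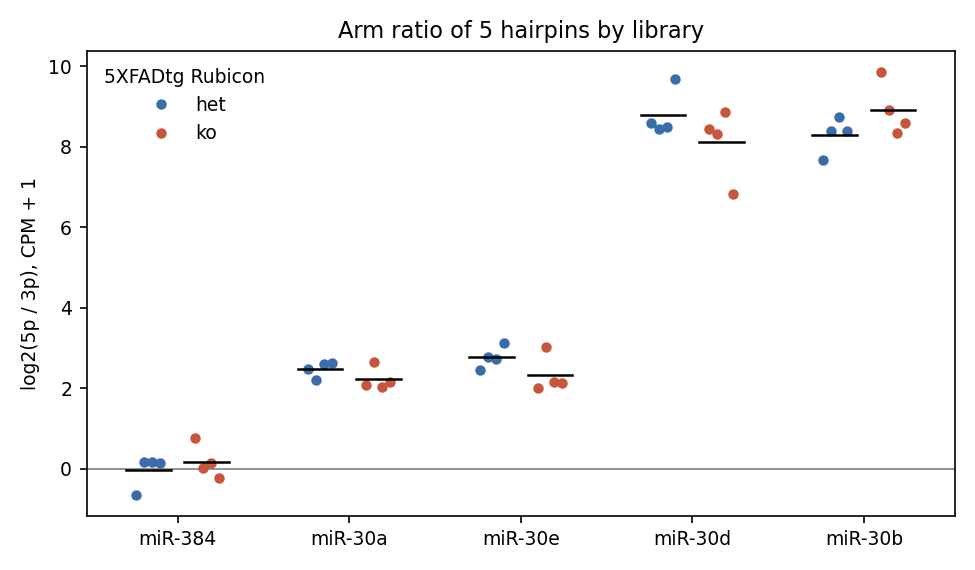
Log2 ratio of 5p to 3p arm for 5 hairpins, with 1 point per library, het in blue, ko in red, a black line at each group mean and a grey line where both arms are equal. miR-384 lies around 0, miR-30a and miR-30e between 1.99 and 3.11, and miR-30b and miR-30d between 6.81 and 9.86, with het and ko overlapping in each.

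The seed viability score attached to every read is the mean viability of 3 mouse cell lines given an siRNA with that 6mer seed (positions 2 to 7), and low scores mark toxic seeds in Death Induced by Survival gene Elimination (DISE). The guide seed GUAAAC has a score of 76.4, so it belongs to the less toxic seeds. It was the 7th most abundant of 3427 seeds in the RISC, with 3.89% of all reads on average and a range from 3.11% to 4.56%.

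Nearly all of this seed was carried by the 6 guides. miR-30c-5p supplied 33.7% of it, miR-30d-5p 19.3%, miR-30b-5p 17.2%, miR-30e-5p 14.0%, miR-30a-5p 13.1% and miR-384-5p 1.68%. The remaining 1.04% came from 476 sequences without a mature name, of which 433 were annotated to hairpins of the family. The seed UUUCAG of miR-30a-3p, miR-30e-3p and miR-30d-3p has a score of 70.1. Among the main seeds of the arms, the lowest scores were 30.8 for UGGGAG of the miR-30c 3p arms and 19.0 for UGGGAU of miR-30b-3p, and together with miR-30d-3p these 4 arms summed to between 65.8 and 169 CPM per library.

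Few reads of the miR-30 guides lacked the main seed. Reads without the main 6mer seed made up 2.88% ± 0.43 of miR-30a-5p, 2.53% ± 0.36 of miR-30b-5p, 2.74% ± 0.23 of miR-30c-5p, 2.08% ± 0.27 of miR-30d-5p and 3.46% ± 0.54 of miR-30e-5p (SD, n = 8 each). Over 278 miRNAs of at least 100 CPM the median was 3.06%. In each of these 5 guides the seed UAAACA, which arises when the first base is missing, was the most frequent of the others, from 1.17% of miR-30d-5p to 2.47% of miR-30e-5p. Its score of 95 is above that of the main seed. The read of miR-30a-5p that leads this group, with the seed in capitals, averaged 44.8 ± 13.4 CPM (SD, n = 8).
Shifted miR-30a-5p read: gTAAACAtcctcgactggaagct

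In miR-384-5p, reads without the main seed made up 9.45% ± 1.47 (SD, n = 8), a share that includes a base change inside the seed, and 73 of the 278 miRNAs had a larger share. Here the seed AAACAA, from a start 2 bases downstream, led with 3.88%, ahead of UAAACA with 3.24%.

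The 3p arms of miR-30a and miR-30e, which differ only by G18A, were unlike each other at the 5′ end. Reads without the main seed made up 28.1% ± 2.57 (SD, n = 8) of miR-30a-3p and 2.93% ± 0.59 (SD, n = 8) of miR-30e-3p. The lowest library of miR-30a-3p was at 25.1% and the highest of miR-30e-3p at 3.94%, so the shares did not overlap in any of the 8 libraries. Of the 278 miRNAs, 34 had a larger share than miR-30a-3p. This pair was singled out after its values were seen and carries no test. The shifted reads had the seed UUCAGU with a score of 54.0, and the CPM-weighted mean score of all miR-30a-3p reads was 65.5 ± 0.40 against 69.6 ± 0.12 for miR-30e-3p (SD, n = 8 each). Among the other arms, miR-384-3p lacked its main seed in 42.0% ± 8.24 of reads and miR-30d-3p in 19.3% ± 9.65 (SD, n = 8 each). miR-30c-1-3p, miR-30c-2-3p and miR-30b-3p were at 10.2%, 5.67% and 3.34%. Except for miR-384-3p, these values rest on few reads in the shallow libraries.

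Between genotypes limma called 0% of the 278 shares (17 had an unadjusted p under 0.05). For miR-30a-3p the share was 29.6% ± 2.72 in het and 26.5% ± 1.26 in ko (SD, n = 4 each), a difference of -0.22 on the log2 scale of other over main seed (95% interval -0.55 to 0.11, limma adjusted p = 0.807). For miR-384-5p it was 9.42% ± 2.12 in het and 9.47% ± 0.72 in ko (SD, n = 4 each), a log2 difference of 0.04 (95% interval -0.47 to 0.54, limma adjusted p = 0.992).

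The 3′ ends set the paralogs apart although their seed was the same. miR-30b-5p was 22 nt long in 76.9% ± 2.08 of its reads and miR-384-5p 23 nt long in 80.4% ± 2.64 (SD, n = 8 each). miR-30c-5p was longer, with 43.9% ± 3.28 of reads at 24 nt and 22.6% ± 3.26 at 23 nt (SD, n = 8 each). Its leading read, at 5733 ± 826 CPM (SD, n = 8), runs 1 base past the RefSeq mature end.

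By contrast, miR-30a-5p, miR-30d-5p and miR-30e-5p were spread over lengths from 19 to 24 nt. miR-30d-5p was most often 20 nt long (29.2% ± 2.71 (SD, n = 8)), and 24 nt reads still made up 14.4% ± 1.69 (SD, n = 8). In miR-30e-5p, 20 nt and 24 nt reads were about equally frequent, at 21% ± 4.87 and 22.7% ± 2.47 (SD, n = 8 each). In miR-30a-5p no length from 20 to 24 nt held more than 19.9% or less than 16.9% on average. The leading reads, with positions 2 to 7 in capitals, show how far the 3′ ends differ.
miR-30a-5p, 20 nt, 1050 CPM: tGTAAACatcctcgactgga
miR-30e-5p, 24 nt, 1219 CPM: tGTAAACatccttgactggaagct
miR-30e-5p, 20 nt, 1186 CPM: tGTAAACatccttgactgga
miR-30c-5p, 24 nt, 5733 CPM: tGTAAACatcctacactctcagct
miR-384-5p, 23 nt, 549 CPM: tGTAAACaattcctaggcaatgt

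Mean read length was tested over the same 278 miRNAs, and limma called 0% (15 had an unadjusted p under 0.05). The difference of ko minus het ranged from -0.04 nt for miR-30e-5p to 0.07 nt for miR-30e-3p, and the widest 95% interval over the members ran from -0.31 to 0.22 nt.

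**Figure D4:**
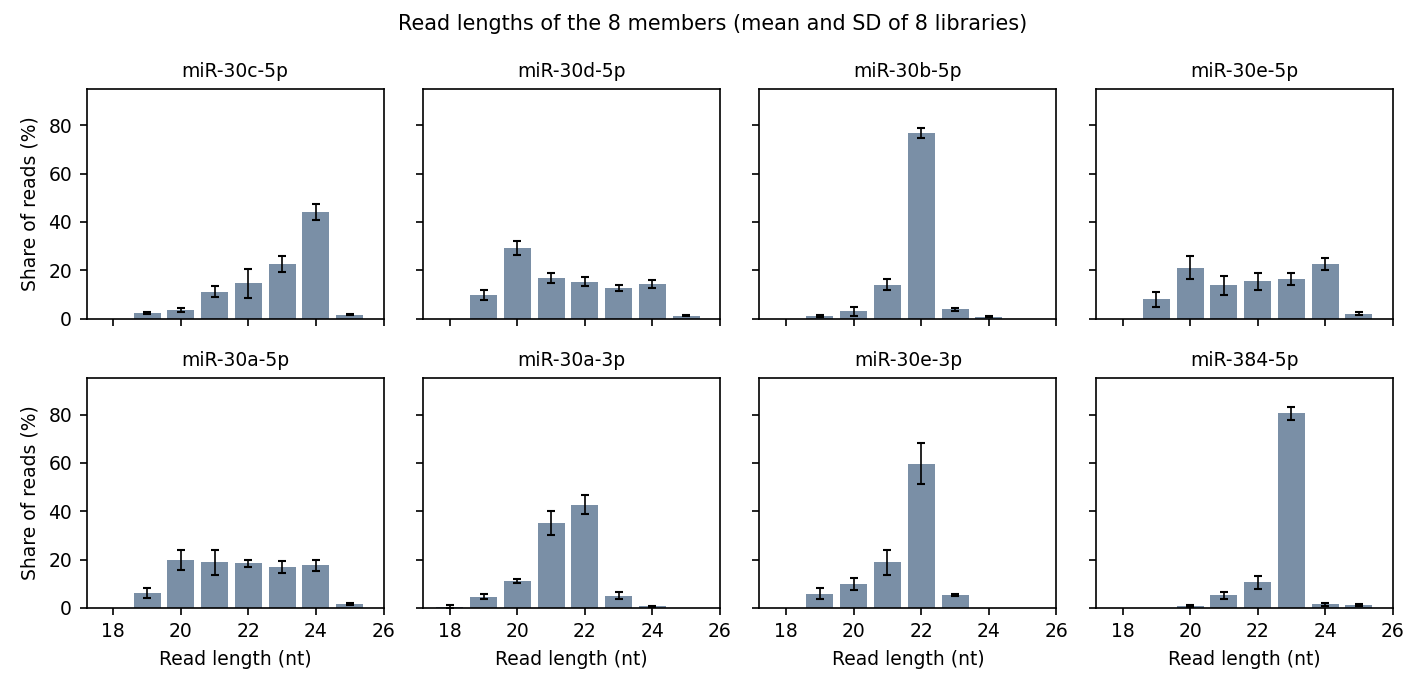
Share of the reads of each member at each length in nt, as mean and SD of the 8 libraries, with the scarcest lengths not drawn. miR-30b-5p and miR-384-5p have 1 dominant length, at 76.9% and 80.4%, while miR-30a-5p, miR-30d-5p and miR-30e-5p are spread from 19 to 24 nt.

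Bases at the 3′ end that do not match the hairpin were frequent in miR-30a-3p and miR-30e-3p. Reads were called tailed when up to 3 end bases departed from the RefSeq hairpin, which could be examined for 6 members. Tailed reads made up 42.0% ± 4.35 of miR-30a-3p and 39.9% ± 5.62 of miR-30e-3p (SD, n = 8 each). Of 233 miRNAs examined the median was 11.1%, and 11 and 12 of them had a larger share than these 2 arms.

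A single added U accounted for most of it, with 31.9% ± 4.52 of miR-30a-3p and 32.5% ± 6.10 of miR-30e-3p (SD, n = 8 each). The most abundant read of both arms was such a form, with the added base in capitals. It held 20.2% of miR-30a-3p (208 ± 40.8 CPM) and 31.1% of miR-30e-3p (297 ± 79.5 CPM) (SD, n = 8 each).
miR-30a-3p: ctttcagtcggatgtttgcagT
miR-30e-3p: ctttcagtcggatgtttacagT

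In the guides of the same hairpins a single added U was scarce, at 1.99% ± 0.30 of miR-30a-5p and 2.30% ± 0.21 of miR-30e-5p (SD, n = 8 each), and a single added A was more frequent, at 4.77% ± 1.70 and 4.59% ± 1.85. miR-30c-5p was tailed in 4.02% ± 0.21 of its reads (SD, n = 8). miR-384-5p was among the least tailed miRNAs, at 0.84% ± 0.30 (SD, n = 8), with 229 of 233 above it. In the other 3p arms examined, 1 added U made up 4.09% of miR-384-3p on average and, from few reads, 1.40% of miR-30c-1-3p and 3.58% of miR-30c-2-3p.

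Tailing was not tested between genotypes. Of 12 shares with 1 added U or 1 added A in the 6 members, the groups did not overlap in 2, against 11 of 466 such shares (2.36%) over the 233 miRNAs. Single added A in miR-30a-3p was 4.16%, 3.19%, 4.55% and 4.24% in het and 5.35%, 4.97%, 4.78% and 5.86% in ko. Single added U in miR-30e-5p was 2.18%, 2.23%, 1.99% and 2.14% in het and 2.41%, 2.32%, 2.58% and 2.55% in ko. In both, all ko libraries were above all het libraries. The larger share of added U in miR-30e-3p was 30.1% ± 8.23 in het and 34.9% ± 1.91 in ko (SD, n = 4 each), and the groups overlapped.

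**Figure D5:**
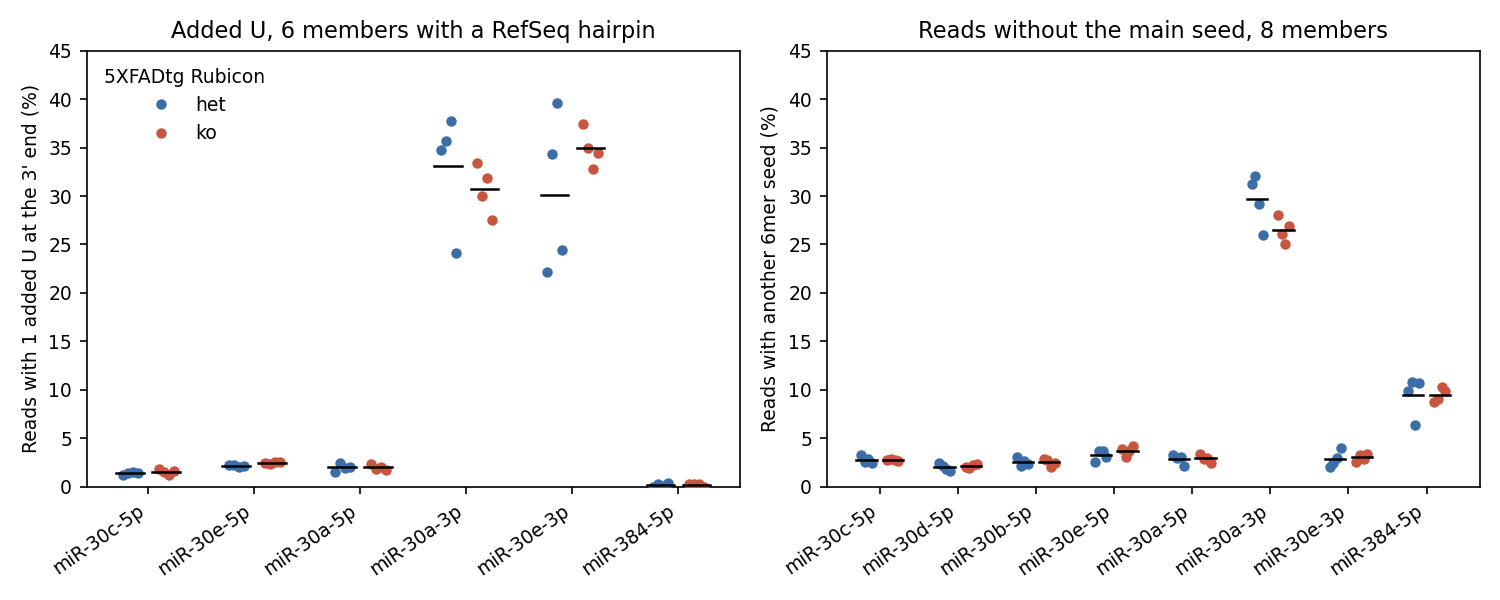
Left, percent of reads with 1 added U at the 3′ end for the 6 members with a RefSeq hairpin. Right, percent of reads without the main 6mer seed for all 8 members. Each point is 1 library, het in blue and ko in red, with a black line at the group mean. The added U lies between 22.2% and 39.6% in the 3p arms of miR-30a and miR-30e and at or below 2.58% in the 4 guides, while reads without the main seed make up between 25.1% and 32.1% in miR-30a-3p and at or below 10.8% in the other 7 members.

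Reads that depart from the guide by 1 base inside positions 2 to 8 were counted for all 126 such changes of the 6 guides, over the first 11 bases. One of them stood out and was singled out after its value was seen. A4G in miR-384-5p was found in 374 of 27624 reads pooled over the libraries (1.35%). Of the others, U3C of miR-30a-5p was the largest in pooled reads, at 0.0731%. By the mean of the library shares the largest other change was G2U of miR-384-5p, at 0.0999% from 8 reads in all, against 1.23% for A4G. The A4G form changes the seed to GUGAAC, which has a score of 47.7 in place of 76.4. Its leading read is given with the changed base in capitals.
miR-384-5p with A4G: tgtGaacaattcctaggcaatgt
Its share was 1.44%, 2.71%, 0.781% and 1.17% in het and 1.23%, 1.44% and 1.04% in ko 1 to ko 3. In ko 4 there were 0 of 473 reads, which allows a share of up to 0.634% by a limit of 3 reads and up to 0.806% by the 95% Wilson interval. In the deepest library 207 of 14411 reads had it (95% Wilson interval 1.25% to 1.64%). The same change was found in at most 0.0409% of the pooled reads of any miR-30 guide. The means were 1.53% ± 0.83 in het and 0.93% ± 0.64 in ko (SD, n = 4 each), with overlapping groups and no test. Intervals and limits cover counting error only, as the reads have no molecular identifiers.

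The miRNAs whose level followed the summed guide arms most closely were sought among 269 miRNAs of at least 100 CPM outside the family. After the genotype mean was removed, Pearson's r over the 8 libraries was 0.91 for miR-27a-3p, 0.86 for both miR-15a-5p and miR-194-5p. Like the family, all 3 were lowest in ko 4. The libraries also share their scaling to a fixed total and their depth, and these values are a description without a test.

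Of 10 other miRNAs linked to autophagy, all 10 were tested and 0 were called, against 6 of all 463 miRNAs tested (1.3%). Of the 10, 3 were higher and 7 lower in ko, against 188 higher and 275 lower over all miRNAs tested. The median log2 fold change was -0.10 for the 10 and -0.09 over all miRNAs. The smallest p belonged to miR-130a-3p among the lower ones, at a log2 difference of -0.59 ± 0.33 (SE; adjusted p = 0.754 by limma), and to miR-34a-5p among the higher ones, at 0.15 ± 0.36 (SE; adjusted p = 0.975 by limma).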

How the data were processed

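Small RNAs bound to Argonaute were sequenced from brain of 4 het and 4 ko mice. Per the study's methods, the authors trimmed reads (Trim Galore is named in the submitters' processing notes), removed rare and artificial sequences and matched the rest to mouse small RNAs with the SPOROS pipeline. Versions and the genome build are not given in the sources used here. The authors deposited CPM, having scaled every library to 1000000 reads, so each value is relative to all other reads there. The deposited total signal is the sum of the 8 CPM columns and was not used further. The deposited viability score comes from an earlier screen of the authors and not from these mice. Every sequence kept had at least 8 reads over the libraries, so rare isoforms of shallow libraries can be missing.

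CPM were summed by miRNA name. All values (100%) were whole multiples of 1 read within 0.0011 CPM, which gave the depth in kept reads, from 509839 to 19878054. Depth limits the scarce arms, and the spread between 4 mice per genotype limits the rest. Per the labels, which give a mouse number for each library, each came from its own mouse.

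In R 4.3.3, limma 3.58.1 with robust and trended eBayes was fitted on log2(CPM + 1) of all miRNAs or reads with a mean of at least 10 CPM, on log2 5p to 3p ratios of hairpins with both arms at 10 CPM, and on the log2 ratio of other to main seed and the mean length of miRNAs of at least 100 CPM, with Benjamini-Hochberg adjustment in each and a threshold of 0.05. A log2 fold change on this scale understates the change of scarce features. Pairs of members were compared by exact sign-flip permutation over the 8 libraries.

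The members and all lists were chosen with earlier results of these data known. The named features were the 8 members, the other arms of their hairpins, the 2 leading reads and the leading shifted read of each member, the 3 miRNAs most like the summed guides, and the autophagy-linked miRNAs with the smallest p in each direction. The 2 member reads with an unadjusted p under 0.05, tails, the seed changes and the pair of 3p arms were chosen after seeing the data. The alternatives were other pseudocounts (0.1 and 10), other minimum means (1 and 100 CPM), median centring, the replicate number as a block, leaving out each library or the 2 deepest, and edgeR 4.0.16 and DESeq2 1.42.0 on the recovered reads. Python 3.11.15, numpy 2.4.6, scipy 1.17.1, pandas 2.3.3 and matplotlib 3.10.9 were used.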

Additional observations from a re-analysis of the deposited data

Results flagged for a closer look

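In 58 groups of 4 libraries, 1 library stood far from the other 3 in 4 cases by Dixon's 95% criterion, where chance gives about 2.9 (1 in 20). For the level of miR-30a-3p in het, het 4 was lowest at 796 CPM and the next library was at 1056 CPM. For the log2 5p to 3p ratio of miR-30e in ko, ko 2, the deepest library, was highest at 3.01 and the next was at 2.15. For that of miR-30d in het, het 4 was highest at 9.68 and the next was at 8.59, with miR-30d-3p at 8.26 CPM in that library. For that of miR-384 in het, het 1, the shallowest library, was lowest at -0.65 and the next was at 0.14.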

How the results depend on the processing

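Over 429 values of the members' genotype fits under the alternatives, 0 passed the threshold (smallest adjusted p 0.226, for miR-30e-5p without ko 2), 384 kept their direction and 45 turned. With median centring the log2 fold change turned to 0.0524 for miR-30a-5p, 0.20 for miR-30c-5p, 0.22 for miR-30e-3p and 0.14 for miR-384-5p. With edgeR it turned to 0.11, 0.12 and 0.0178 for miR-30c-5p, miR-30e-3p and miR-384-5p, and with DESeq2 to 0.13, 0.13 and 0.0233. Without the 2 deepest libraries it turned to -0.10 for miR-30b-5p, the arm difference of miR-384 to -0.0015, the seed shift of miR-30a-5p to -0.0575 and the length difference to -0.0605 nt for miR-30c-5p and 0.0747 nt for miR-30e-5p.

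The replicate numbers did not pair the libraries. Deviations of same-numbered libraries correlated at 0.04, 0.29, -0.18 and 0.25, and only number 2 had its best partner under its own number. With the replicate block, 10 miRNAs in place of 6, 26 reads in place of 16 and 2 arm ratios in place of 0 were called, with 0 members among them.

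Called reads numbered 35 at a mean of at least 1 CPM, 5 at 100 CPM, 9 without the 2 deepest libraries and 27 with DESeq2. Seed shifts called numbered 3 with a pseudocount of 10. Leaving out 1 library at a time gave 4 to 9 called miRNAs, 9 to 21 reads (9 without het 4, 10 without het 2), 0 to 1 arm ratios (1 without ko 4) and 0 to 2 seed shifts (2 without ko 3), with 0 members. Over these, log2 fold changes ranged from -0.0178 to 0.16 for miR-30a-3p, -0.0661 to 0.16 for miR-30b-5p, -0.0918 to 0.0853 for miR-30c-5p, -0.15 to 0.0868 for miR-30e-3p and -0.28 to 0.13 for miR-384-5p. Seed shifts ranged from -0.0942 to 0.13 for miR-30a-5p, -0.10 to 0.0745 for miR-30b-5p, -0.0836 to 0.0475 for miR-30c-5p, -0.0183 to 0.30 for miR-30e-3p and -0.16 to 0.12 for miR-384-5p. Length differences ranged from -0.0046 to 0.16 nt for miR-30a-5p, -0.0297 to 0.0786 nt for miR-30c-5p, -0.0367 to 0.0630 nt for miR-30d-5p, -0.0052 to 0.13 nt for miR-30e-3p, -0.12 to 0.0376 nt for miR-30e-5p and -0.0243 to 0.0111 nt for miR-384-5p. The cause was not tested. Of the 28 pairs, 23 to 25 passed when 1 library was left out, and 22 without the 2 deepest. miR-30a-3p over miR-30e-3p passed without het 1 and miR-30b-5p over miR-30e-5p without het 2 (exact permutation tests, adjusted p = 0.0365 and 0.035).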
